A study of Canis lupus familiaris with 20 samples.

Results

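The 59 genes described here rose with age in the vertebral epiphyseal cartilage of control dogs, by at least 2 on a log2 scale, while their mean log2 level in dogs with mucopolysaccharidosis VII (MPS VII) gained less than 0.5 over the same days. They were chosen by measured values of all 4 groups of the study, out of 14550 genes tested and 24580 genes in the table. The scale was log2 CPM, that is, counts relative to the scaled library size (CPM) on a log2 scale with a prior count of 2, which shortens differences of genes with few counts. A member had a control mean at least 2 higher at day 14 than at day 9, with the lowest control library of day 14 above the highest of day 9. Its MPS VII mean at day 14 exceeded that at day 9 by under 0.5, and the genotypes lay within 1 of each other at day 9. In all, 65 genes met these limits, and 6 of them, set aside by identifier or region, are not described here.

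Epiphyseal tissue next to the growth plate was taken from both ends of the T12 vertebra and combined for each animal, and its messenger RNA was sequenced. The control groups were dogs heterozygous for a missense change in GUSB, euthanized at postnatal day 9 (n = 5) or day 14 (n = 5). The MPS VII groups were dogs homozygous for the same change, of the same ages (n = 5 each), so every animal of the study carried at least 1 copy of it. The disease arose naturally in this dog line, and controls were matched by litter, although the labels used here do not say which animals shared a litter, nor their sex. Genes carry Ensembl identifiers that match no gene name in the tables at hand. They are therefore given by their position in CanFam3.1, neither the level of GUSB nor markers of cartilage or other cell types were checked, and what each member encodes is not given.

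MPS VII is a lysosomal storage disease in which the enzyme beta-glucuronidase is deficient and fragments of glycosaminoglycans build up in cells. The vertebral epiphysis forms bone by endochondral ossification: chondrocytes enlarge, the matrix around them mineralises, and vessels bring in cells that resorb cartilage and lay down bone. In affected children and animals this cartilage can persist where bone should have formed. Whole tissue was sequenced, so a smaller number of cells of a type and less RNA per cell cannot be told apart in any level below.

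Libraries held 15772761 to 28028365 counts. Depth went with age, at 21419930 to 28028365 counts on day 9 and 15772761 to 22471728 on day 14. Libraries correlated with the rest of their own group with a mean Pearson r of 0.958 to 0.980 across genes, except MPS VII day 9 replicate 3, at 0.920. That library stood apart from its group, and every MPS VII change or day 9 difference that crossed a limit or changed sign without it in a gene described by library is given both ways. Nothing in the labels ties a library to a sequencing batch. Replicate numbers were given here by the order of the samples within each group, and equal numbers do not link animals between groups.

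The members were mostly quiet at day 9 and had a median of 7.48 CPM at control day 14, against 12.4 CPM in tested genes. Their control rise ran from 2.01 to 5.10 with a median of 2.39, where the median over all tested genes was -0.05. In MPS VII the difference ran from -1.23 to 0.498 with a median of 0.0011, against -0.06 over all tested genes. The genotype difference at day 14, MPS VII minus control, was -5.56 to -1.14 with a median of -2.63. These 3 ranges follow from how the members were picked and are descriptions only. Leaving aside the genes set apart by identifier or region, 225 genes had a control rise of this size and no overlap of ages. Of these, 79 had an MPS VII change under 0.5, and 59 of these also met the limit at day 9. Those 225 genes had a median MPS VII change of 0.83, which was at least 2 in 19 of them.

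**Figure D1:**
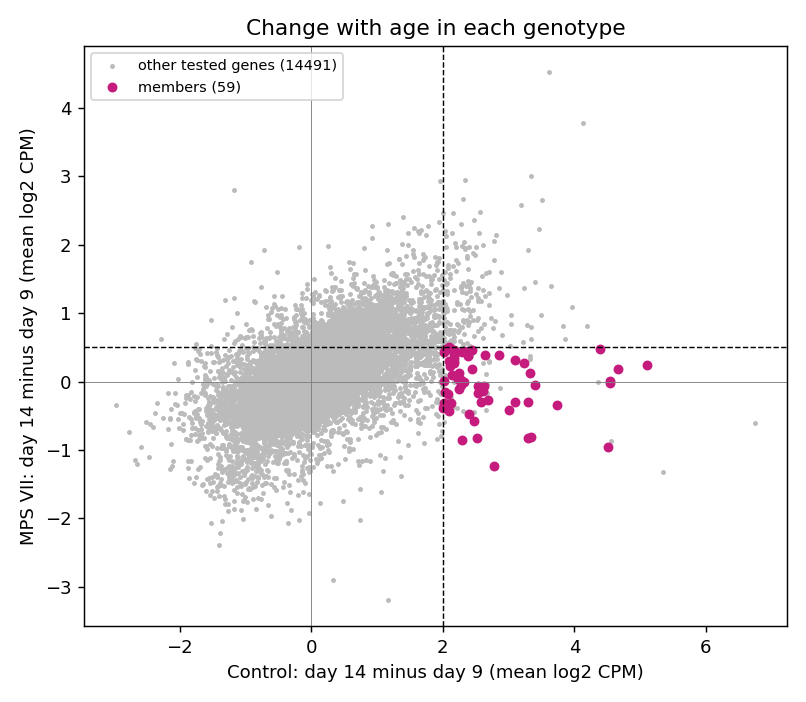
Each point is 1 tested gene: the horizontal axis is the mean log2 CPM of control day 14 minus day 9, the vertical axis the same in MPS VII, and dashed lines mark 2 and 0.5. The 59 members (magenta) lie from 2.01 to 5.10 across and from -1.23 to 0.498 upward; grey points beside them failed another limit or were set aside.

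In the quasi-likelihood fit of edgeR, adjusted over all tested genes by the Benjamini-Hochberg method, 59 of the 59 members were called higher at day 14 in controls, a call made for 21.8% of all tested genes. At day 14, 58 were called lower in MPS VII (10.7% of tested genes), and the difference of the age change was called lower in MPS VII for 46 (2.43% of tested genes). These contrasts are what the choice used, so the counts carry no evidence of their own. In MPS VII 1 member was called higher with age (12.7% of tested genes) and 1 lower (9.92%). At day 9, 1 member was called lower in MPS VII (2.21%) and 0 higher (6.18%). The choice limited both of these contrasts as well, so their low counts are descriptions too. DESeq2 called 4 members at day 9, and the edgeR count was 0 to 3 when single libraries were left out. The 5 libraries of MPS VII day 14 lay wholly below the 5 of control day 14 in 56 members (9.83% of tested genes). That order too was favoured by the choice. The other 3 members, singled out after their values were seen, start at 2791807 on chromosome 8, at 37681034 on chromosome 9 and at 37539218 on chromosome 18.

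**Figure D2:**
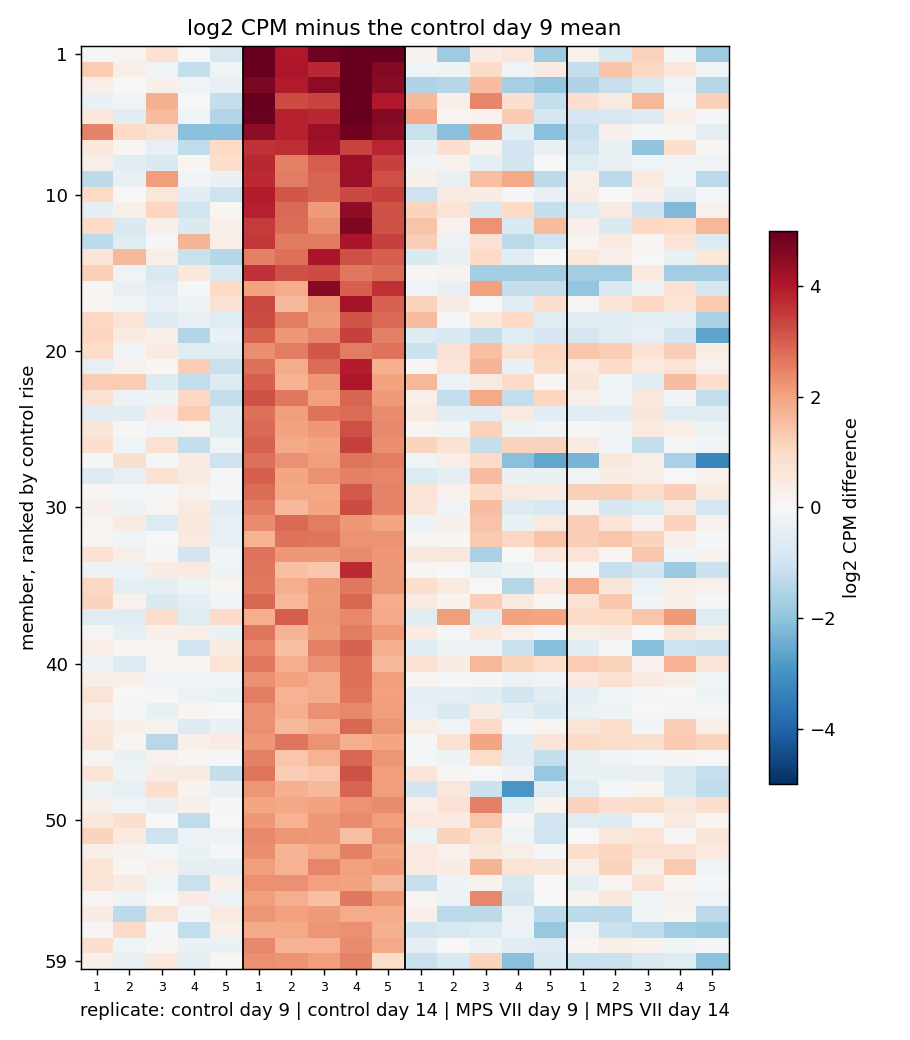
Rows are the 59 members ranked by control rise, columns the 20 libraries by group and replicate, and colour is log2 CPM minus the control day 9 mean of that gene, with colours ending at 5 in either direction. All 5 control day 14 columns are above the younger controls in every row, whereas the mean of the MPS VII day 14 columns is below the control day 9 mean in 28 rows, and MPS VII day 9 replicate 3 is the highest of its group in 30.

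The steepest rise belonged to ENSCAFG00000019846, on chromosome 5 from 64257310 to 64277178, with 14 exon parts. Control day 9 libraries held 0.209, 0.256, 0.440, 0.232 and 0.0896 CPM, and control day 14 libraries 11.41, 5.04, 9.07, 27.2 and 10.3 CPM, given in the order of replicates 1 to 5 here and below. MPS VII libraries held 0.272, 0, 0.316, 0.376 and 0 CPM at day 9, and 0.275, 0.0952, 0.614, 0.212 and 0 CPM at day 14. Every control library of day 14 thus exceeded every other library at least several-fold, and MPS VII stayed near the limit of detection, with 23 counts over its 5 libraries of day 14. The control rise was 5.10, against 0.24 in MPS VII, or 0.46 without MPS VII day 9 replicate 3. The fitted log2 fold change was 5.65 ± 0.648 (SE) in controls and 0.27 ± 0.824 in MPS VII. Another annotated gene overlaps it on the opposite strand, and how the counting treated strand is not given in the sources used here.

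Next was ENSCAFG00000008904, on chromosome 23 from 51482718 to 51492566, with a control rise of 4.67. Its levels went from 0.418, 0.171, 0.0881, 0 and 0.0896 CPM to 8.31, 3.36, 2.72, 10.3 and 4.93 CPM in controls. In MPS VII they were 0.0908, 0.0835, 0.316, 0.0940 and 0.184 CPM at day 9 and 0, 0.476, 0.335, 0.212 and 0.0970 CPM at day 14. The MPS VII groups overlapped each other and control day 9. This gene too is overlapped by an annotated gene on the opposite strand.

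By level the leading member was the gene on chromosome 10 from 7659241 to 7726642, the most abundant per length at control day 14, with 106 CPM per kb of exon. Control day 9 libraries held 13.8, 11.01, 13.3, 9.45 and 8.55 CPM, and control day 14 libraries 293, 176, 245, 371 and 255 CPM. MPS VII day 14 libraries held 3.86, 4.85, 6.47, 9.43 and 4.07 CPM, all but replicate 4 below every younger control. At day 9 MPS VII replicate 3 held 32.6 CPM, while the other libraries of its group held 3.81, 4.09, 3.39 and 2.85 CPM. That library decided whether the gene was a member: without it the MPS VII change went from -0.02 to 0.62, and the day 9 difference from -0.99 to -1.63. On the count scale of the edgeR fit the MPS VII change with all libraries was -0.72 ± 0.543 (SE). The control rise of 4.55 and the day 14 difference of -5.56 do not use that library.

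Among the other large rises, the gene on chromosome 9 from 19539429 to 19544650 differed widely between control animals of day 14. They held 8.47, 1.92, 2.04, 21.8 and 3.20 CPM, against 0.0697, 0.0854, 0.616, 0.116 and 0 CPM at day 9. MPS VII held 0.545, 0.167, 1.03, 0.282 and 0 CPM at day 9 and 0.275, 0.190, 0.558, 0.106 and 0.388 CPM at day 14. Its control rise was 4.54, and its change in MPS VII 0.0031, or 0.41 without MPS VII day 9 replicate 3. All 5 control libraries of day 14 lay above the MPS VII libraries of that day, with replicates 2, 3 and 5 far under replicates 1 and 4.

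ENSCAFG00000016977, on chromosome 9 from 26017194 to 26023071, rose by 4.504 in controls. Their libraries went from 0.628, 0.256, 1.41, 0.348 and 0.0896 CPM to 15.2, 7.11, 6.58, 20.5 and 11.8 CPM. In MPS VII the level was 1.82, 0.459, 0.474, 1.13 and 0.184 CPM at day 9 and 0.184, 0.190, 0.223, 0.530 and 0.388 CPM at day 14. This change of -0.96, with overlapping groups, did not pass the test. An annotated gene on the same strand overlaps this one.

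On chromosome 16, the gene from 15384335 to 15404037 had an uneven day 9 in both genotypes. Controls held 2.09, 0.683, 0.572, 0 and 0 CPM at day 9 and 8.59, 5.62, 7.71, 11.2 and 8.73 CPM at day 14. MPS VII held 0.0908, 0, 1.62, 0.188 and 0 CPM at day 9 and 0.0918, 0.381, 0.279, 0.318 and 0.194 CPM at day 14. The high library of MPS VII day 9 was again replicate 3, and without it the MPS VII change went from 0.47 to 1.19 and the day 9 difference from -0.74 to -1.45. The difference of the age change did not pass the test in this gene.

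A more even rise was seen on chromosome 2, in the gene from 28368004 to 28403561 with 21 exon parts. Control libraries held 0.418, 0.299, 0.176, 0.0580 and 0.627 CPM at day 9 and 4.31, 4.56, 6.41, 3.66 and 4.84 CPM at day 14, a rise of 3.74. Those of MPS VII held 0.182, 0.543, 0.316, 0.0940 and 0.184 CPM, then 0.0918, 0.190, 0, 0.530 and 0.291 CPM. Here replicate 3, not replicate 4, was the highest control of day 14.

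The gene on chromosome 7 from 60736854 to 60949331, which spans 212 kb, was measured at higher counts. In controls it went from 3.84, 2.18, 1.85, 3.36 and 5.91 CPM to 44.0, 18.5, 26.0, 63.1 and 34.9 CPM, a rise of 3.402. MPS VII stood at 2.81, 3.67, 2.29, 1.65 and 3.08 CPM at day 9 and at 2.07, 2.43, 2.68, 2.75 and 2.76 CPM at day 14. The older MPS VII libraries were thus narrowly spread, with a mean of 2.54 CPM ± 0.297 (SD, n = 5), inside the range of the younger controls.

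Similar in shape was the gene on chromosome 14 from 19399825 to 19403996. Control levels were 3.17, 1.58, 2.38, 1.04 and 0.716 CPM, then 25.1, 14.0, 12.2, 16.3 and 17.4 CPM. MPS VII levels were 0.726, 2.17, 2.05, 1.505 and 1.19 CPM, then 2.07, 1.52, 1.90, 1.06 and 1.503 CPM. The control rise was 3.33 and the MPS VII change 0.13, and replicate 1 was the highest control of day 14.

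At the low end of the 10 steepest risers, the gene on chromosome 20 from 723069 to 749236 reached 2.903, 1.25, 1.59, 4.41 and 2.03 CPM in controls of day 14. Control day 9 libraries held 0, 0.0854, 0.881, 0.116 and 0.0896 CPM, so the ages were separated by little beside the spread. In MPS VII 0.182, 0.0835, 0.553, 0.752 and 0 CPM at day 9 were followed by 0.184, 0, 0.223, 0.106 and 0 CPM. The MPS VII change of -0.81 rested on 10 counts over the 5 older libraries and did not pass the test.

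**Figure D3:**
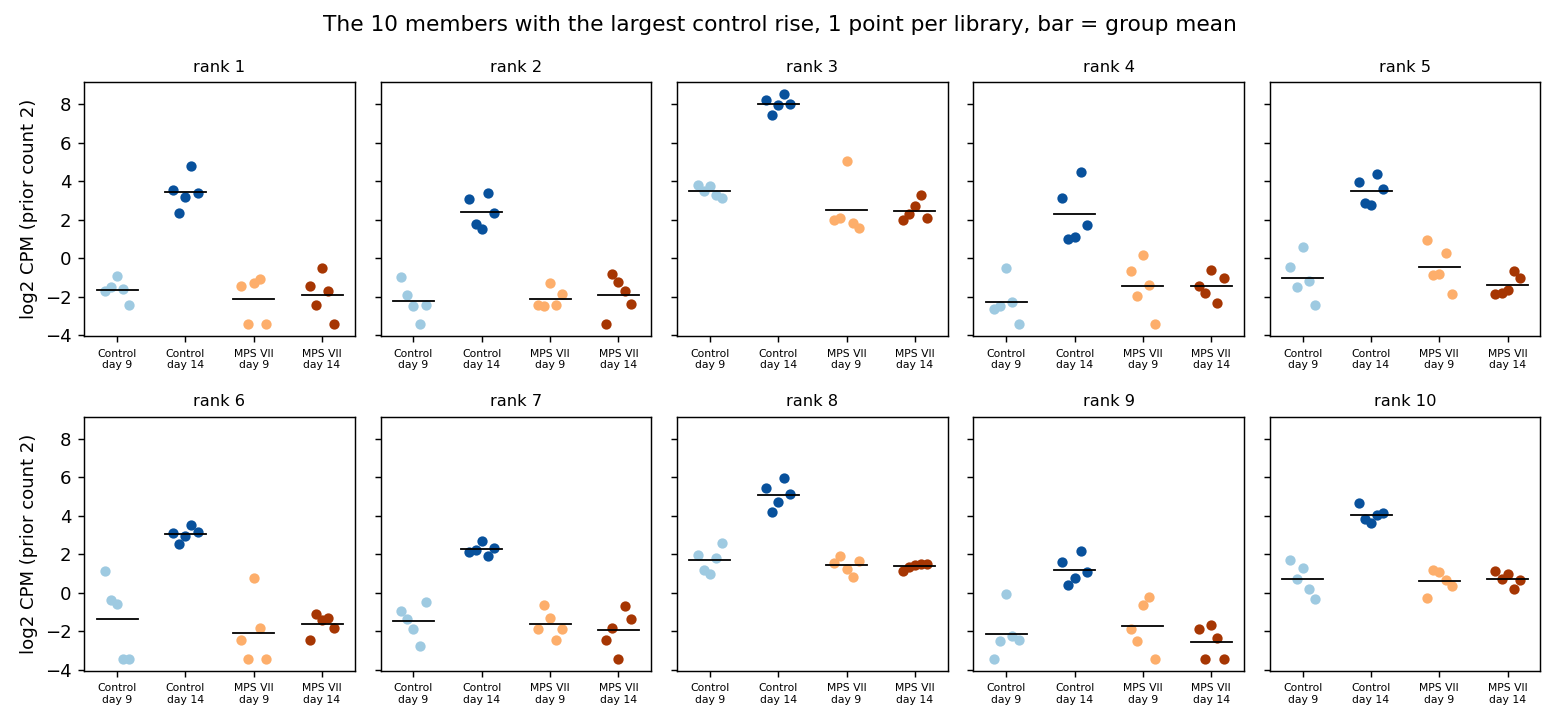
The 10 members with the largest control rise, in order of rank; points are single libraries by group, bars group means, and the vertical axis is log2 CPM with a prior count of 2. In each panel the 5 control day 14 points lie above all others, and in the third panel MPS VII day 9 replicate 3, at 32.6 CPM, stands above its own group.

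The 6 members with the lowest MPS VII change include 2 described above. Lowest of all was ENSCAFG00000003087, on chromosome 15 from 3327526 to 3359170, the only member called lower with age in MPS VII. Its MPS VII libraries held 0.726, 0.167, 0.316, 0.470 and 0.0919 CPM at day 9 and 0.0918, 0.0952, 0.112, 0.106 and 0 CPM at day 14, a change of -1.23. Only 8 counts lie behind the older group, and replicate 5 of the younger group lay within its range. In controls it rose by 2.79, from 0.488, 0.341, 0.0881, 0.116 and 0.0896 CPM to 2.58, 1.54, 1.13, 2.39 and 1.90 CPM. An annotated gene on the same strand overlaps it.

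The gene on chromosome 6 from 61930848 to 62316769, with 61 exon parts over 386 kb, had an MPS VII change of -0.86 at counts high enough to compare libraries. MPS VII held 4.08, 3.76, 2.73, 3.103 and 3.58 CPM at day 9 and 3.86, 1.62, 1.90, 1.01 and 1.75 CPM at day 14. In 4 of the 5 older libraries the level was below the whole younger group, and replicate 1 stood with the younger animals. Controls held 3.07, 2.99, 4.80, 5.28 and 3.09 CPM, then 24.3, 10.8, 9.75, 51.1 and 17.3 CPM. The control rise was 2.30, and the gene left the members when control day 14 replicate 4 was left out.

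On chromosome 25, the gene from 36764074 to 36810391 held 0.817, 0.585, 0.158, 0.752 and 0.0919 CPM in MPS VII at day 9 and 0.184, 0.476, 0.112, 0 and 0.388 CPM at day 14. Controls went from 0.209, 0.427, 0.793, 0.116 and 0.358 CPM to 6.09, 2.88, 1.76, 8.91 and 3.72 CPM, a rise of 3.29. The single-exon gene on chromosome 9 from 40501646 to 40502569 also had an MPS VII change of -0.82. It held 0.363, 0.251, 0, 0.376 and 0.368 CPM and then 0.184, 0.0952, 0, 0.106 and 0.0970 CPM in MPS VII. Controls of that gene held 0.279, 0.0854, 0.264, 0 and 0.0896 CPM, then 1.53, 0.672, 0.737, 2.11 and 0.951 CPM. In both genes the MPS VII ages overlapped and their difference did not pass the test, and the single-exon gene is overlapped by a gene on the opposite strand.

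The 6 members with the highest control day 14 CPM include the chromosome 10 gene, and the other 5 rose 4.32-fold to 5.70-fold in mean control CPM. On chromosome 9, the gene from 9177714 to 9231132 held 66.8, 42.2, 41.3, 34.9 and 33.9 CPM in controls of day 9 and 251, 143, 152, 270.5 and 177 CPM at day 14. In MPS VII it held 30.1, 31.5, 28.4, 22.6 and 29.2 CPM, then 30.4, 36.9, 40.6, 43.5 and 36.0 CPM. It was the member called lower in MPS VII at day 9, where no MPS VII library reached the lowest control. The gap at day 14 was wider, with a difference of -2.37 against -0.59 at day 9.

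The chromosome 37 gene from 14293934 to 14409766 was nearest to the MPS VII limit. Control levels were 52.7, 47.9, 39.98, 34.1 and 40.1 CPM at day 9 and 214, 138, 163, 241 and 170.2 CPM at day 14, a rise of 2.10. MPS VII levels were 59.3, 49.5, 62.6, 51.9 and 39.8 CPM, then 77.8, 89.2, 72.2, 71.0 and 60.03 CPM. This MPS VII change of 0.498 passed the test, although the MPS VII ages overlapped, so the gene was called higher with age in both genotypes. No member was called with age in MPS VII under library totals alone, without MPS VII day 9 replicate 4 or without MPS VII day 14 replicate 2. The fitted log2 fold change was 2.11 ± 0.160 (SE) in controls and 0.49 ± 0.155 in MPS VII, and their difference also passed the test.

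On chromosome 24, the gene from 36129001 to 36162505 had its control day 9 libraries between 15.0 and 18.7 CPM (16.9, 15.1, 15.1, 18.7 and 15.0 in order). At day 14 controls held 112, 61.8, 61.8, 135 and 89.7 CPM, a rise of 2.44. MPS VII held 25.2, 18.7, 31.4, 22.2 and 21.5 CPM, then 37.1, 37.1, 30.02, 38.3 and 22.2 CPM. All older MPS VII libraries were above the younger controls and below the older ones.

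The gene on chromosome 4 from 70328943 to 70376127 showed no such intermediate level. Controls went from 16.6, 12.04, 17.6, 15.9 and 14.6 CPM to 86.7, 40.3, 51.1, 114 and 70.6 CPM, a rise of 2.15. MPS VII libraries held 14.796, 12.8, 29.1, 10.6 and 6.62 CPM at day 9 and 11.9, 13.7, 14.45, 15.7 and 15.0 CPM at day 14, again with replicate 3 highest at day 9. An annotated gene on the same strand overlaps it. On chromosome 3, the gene from 52764347 to 52779746 lay between these patterns. Controls held 18.6, 15.5, 14.4, 8.23 and 10.2 CPM, then 63.8, 39.3, 47.3, 94.7 and 59.4 CPM, a rise of 2.17. MPS VII held 16.2, 11.36, 25.01, 12.4 and 14.3 CPM, then 20.2, 23.5, 11.7, 30.1 and 16.4 CPM, which overlapped both its own younger group and the younger controls.

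Members lay on 27 chromosomes, with 7 on chromosome 9, 6 on chromosome 6 and 0 of the 555 tested genes of the X chromosome among them. Only 4 members lay within 200 kb of another. On chromosome 9, a plus-strand gene from 37693566 to 37695566 and a minus-strand gene from 37681034 to 37683018 are 10.5 kb apart, with 3 exon parts each and 856 and 914 bases of exon. The first held 1.19, 0.512, 0.793, 0.348 and 0.358 CPM in controls of day 9 and 3.23, 3.89, 5.61, 3.84 and 4.28 CPM at day 14. In MPS VII it held 0.227, 1.00, 1.82, 1.03 and 1.33 CPM, then 1.65, 1.48, 1.00, 1.48 and 0.776 CPM, and without MPS VII day 9 replicate 3 its change there went from 0.39 to 0.62. The minus-strand gene was the faintest member at control day 14, at 0.403, 1.06, 0.567, 0.656 and 0.432 CPM after 0, 0, 0.176, 0 and 0.179 CPM at day 9. Its MPS VII libraries held 0, 0.501, 0, 0.470 and 0.460 CPM and then 0.184, 0.190, 0.279, 0.530 and 0 CPM, overlapping both control ages. It was the member not called between genotypes at day 14, and its difference of the age change did not pass the test. Neighbours of like structure can be near-identical copies that share reads, which could not be checked here.

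The other pair lay 177 kb apart on chromosome 15 and included ENSCAFG00000003087, described above. Its partner, from 3090343 to 3150876 on the other strand, held 0.279, 0.0854, 0.0881, 0.348 and 0 CPM in controls of day 9 and 1.85, 1.25, 0.794, 1.55 and 0.865 CPM at day 14. MPS VII libraries held 0.182, 0, 0.711, 0 and 0.368 CPM, then 0.184, 0.0952, 0.223, 0.106 and 0 CPM. Every older control was above every other library of this gene, by little in the case of replicate 3. Its difference of the age change did not pass the test. Annotated genes overlap it on both strands, 1 of them tested, so its values are uncertain.

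The 37 members not yet described had a median rise of 2.27, against 3.04 in the 22 described above, and a median of 6.32 CPM at control day 14, against 10.3 CPM. Their control day 14 means ran from 0.706 to 52.4 CPM, their control rises from 2.01 to 3.29 and their MPS VII changes from -0.57 to 0.48. In 35 of them the older MPS VII libraries lay wholly below the older controls, and the difference of the age change passed the test in 27. Members with an MPS VII change of -0.25 or less numbered 18, those between -0.25 and 0.25 numbered 22, and those of 0.25 or more numbered 19. The last set was the most abundant, with a median of 11.1 CPM at control day 14 against 6.90 and 4.38 CPM in the middle and lowest sets. Across all tested genes 27.8% had an MPS VII change of 0.25 or more, and 32.2% of members did.

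As a share of the control rise, the MPS VII change ran from -44.1% to 23.8%. The limits of the choice cap the upper end of this range, so it is a description. In 28 members (47.5%) the mean log2 CPM of MPS VII day 14 was below that of control day 9, and 53.9% of all tested genes had that order. The older MPS VII libraries overlapped the younger MPS VII libraries in all 59 members, so none fell without overlap, which 3.49% of tested genes did. They lay wholly below the younger controls in 1 member (10.9% of tested genes), on chromosome 37 from 24811079 to 24829724, and wholly above them in 4 (14.4% of tested genes). Those 4 start at 36129001 on chromosome 24, 47893457 on chromosome 14, 15517412 on chromosome 9 and 14293934 on chromosome 37, and were singled out after their values were seen.

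Most members were faint before they rose. The control day 9 mean was under 1 CPM in 30 of 59 (50.8%), against 13.03% of tested genes, and 20 members had 0 counts in at least 1 library, against 5.65% of tested genes. The part of low levels in the choice was not tested. Per length of exon, the median member went from 0.395 to 2.98 CPM per kb in controls, still under the median of tested genes at day 14, 5.604 CPM per kb. All 59 members were detected in every control library of day 14, at depths of 16975358 to 20766128 counts. The MPS VII libraries of the same age detected 50 to 56 of them, at 15772761 to 22471728 counts. Each older control had to exceed every younger control, so full detection in the older controls follows from the choice. Libraries of day 9 detected 53 to 59 members in controls and 51 to 58 in MPS VII. The median exon length was 2526 bases (2312 in tested genes), the median number of exon parts 9 in both, and 28.8% overlapped another annotated gene (26.1%). The median span was 31.6 kb, against 20.5 kb in tested genes, and 1 member (1.69%) had a single exon part, against 8.14%.

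Summed over members, control libraries held 231 CPM ± 39.2 at day 9 and 1428 CPM ± 412 at day 14, and MPS VII libraries 241 CPM ± 71.1 and 278 CPM ± 30.4 (SD, n = 5 each). The choice used values of all groups, so the order of these sums is a description. Without replicate 3 the MPS VII sum at day 9 was 211 CPM ± 26.4 (SD, n = 4). The chromosome 10 gene gave much of the sum; without it the older groups held 1160 CPM ± 341 in controls and 272 CPM ± 29.1 in MPS VII.

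Control animals of day 14 differed in how far the members stood above day 9. These libraries took part in the choice, which can favour genes that are high in 1 of them, so their order is a description. The median over members, relative to the control day 9 mean, was 2.68, 2.06, 2.22, 2.89 and 2.23 in replicates 1 to 5, where the median of all tested genes stayed between -0.04 and -0.02. Replicate 4 was the highest of its group in 36 members (61.0%) and in 19.1% of tested genes. Replicate 2 was the lowest in 32 members (54.2%) and in 20.4% of tested genes. Replicates 4 and 2 had totals of 17307301 and 17989614 counts and TMM scaling factors of 1.23 and 1.16. Differences between these libraries were not confined to the members. By chi-square per gene, replicates 1 and 4 were near each other (23.1), as were replicates 2, 3 and 5 (16.7 to 36.0). Pairs across these sets, seen after the values were known, stood at 67.5 to 151. What sets the order of the libraries was not tested.

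In MPS VII of day 9, replicate 3 was highest in 30 members (50.8%), and in 37.3% of tested genes. Its median over members was 0.71, where its group otherwise ran from -0.34 to 0.14. This library took part in the choice, which can favour genes that are high in it, so these values are descriptions. Over 48 genes chosen without the library, its median was 0.39, against 0.06 over all tested genes. Choosing the members anew without it dropped 17 of the 59, and the median MPS VII change of the 59 became 0.23. With the other libraries kept as scaled, 12 members then had an MPS VII change of 0.5 or more and 7 lay beyond 1 at day 9. Among the genes described by library, the change became 0.566 on chromosome 24, 0.565 in the chromosome 37 gene and 0.525 on chromosome 3. On chromosome 15 it went from -0.31 to 0.13 in the gene starting at 3090343, and the day 9 difference from 0.17 to -0.26. In the chromosome 9 gene starting at 37681034 it went from 0.02 to -0.38, with a day 9 difference of 1.35 in place of 0.96. In the single-exon gene the change went from -0.82 to -1.27 and the day 9 difference from 0.60 to 1.04. In the gene of chromosome 23 the day 9 difference went from 0.15 to -0.06.

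**Figure D4:**
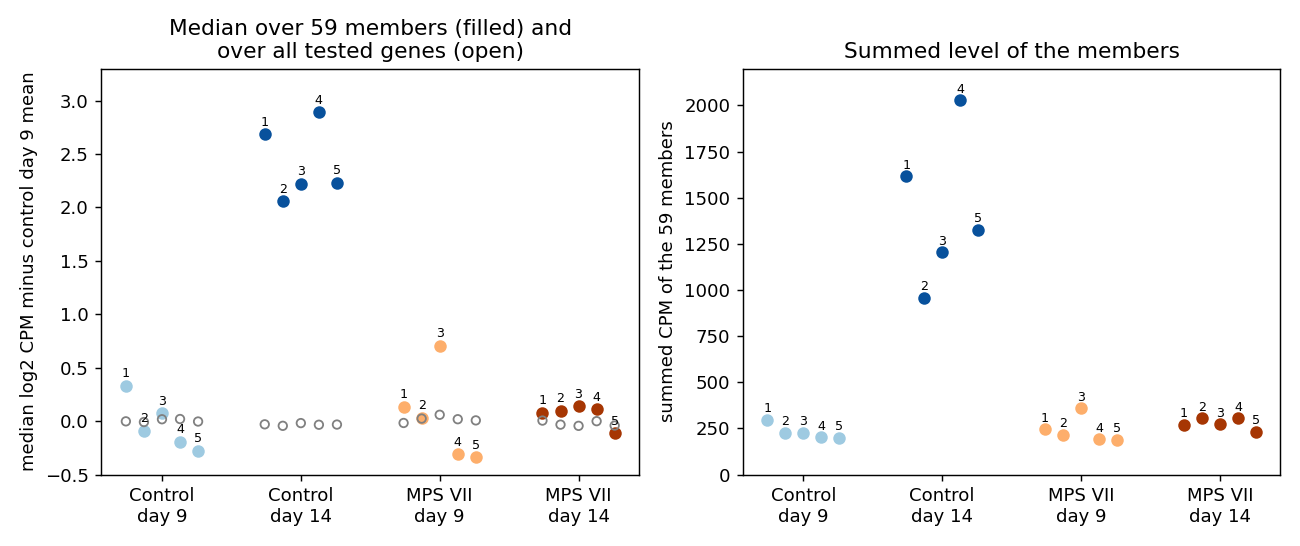
Left, the median over the 59 members (filled) and over all tested genes (open) of log2 CPM minus the control day 9 mean; right, the summed CPM of the members; each point is a library with its replicate number. Control day 14 libraries lie between 2.06 and 2.89 on the left and between 958 and 2030 CPM on the right, and the other 15 libraries at most at 0.71 and 361 CPM. Every library shown took part in choosing the members.

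To read the members in libraries that had no part in choosing them, each library was left out, the genes were chosen again from the other 19, and the left-out library was then read. Left-out control libraries of day 14 stood 2.69, 1.84, 2.18, 2.92 and 2.20 above the control day 9 mean (medians over 55, 69, 60, 49 and 62 genes, replicates 1 to 5). All tested genes had medians of -0.04 to -0.02 there. In 40.6% to 91.8% of the chosen genes the left-out library itself was at least 2 higher and above every younger control, against 1.75% to 2.93% of tested genes. Left-out MPS VII libraries of day 14 stood 0.01, 0.23, 0.19, 0.16 and -0.30 above the MPS VII day 9 mean, over 54, 63, 56, 58 and 53 genes. Each lay below the lowest control of day 14 in 93.1% to 100% of the chosen genes, and in 27.6% to 32.3% of tested genes. A change under 0.5 was found there in 77.8%, 66.7%, 71.4%, 69.0% and 84.9% of chosen genes. All tested genes met it in 83.7%, 82.0%, 76.8%, 82.4% and 80.5%, so only replicate 5 had the higher share in chosen genes. Only the left-out library is outside the choice in these readings: the day 9 means and the lowest control of day 14 that it was set against helped to choose the genes. The 5 values of a group share most of their other libraries and were not tested against each other.

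**Figure D5:**
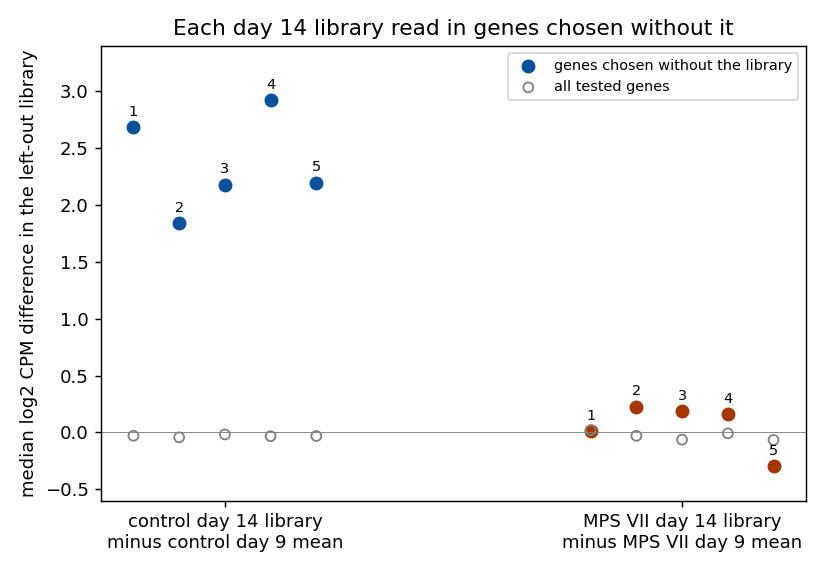
Median log2 CPM difference of each day 14 library (points with replicate numbers) from the day 9 mean of its genotype, over genes chosen without that library (filled) and over all tested genes (open). Control libraries lie between 1.84 and 2.92 and MPS VII libraries between -0.30 and 0.23, while all tested genes stay near 0.

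At day 9, left-out control libraries stood 1.79 to 2.55 below the control day 14 mean, with replicate 1 nearest to it. Left-out MPS VII libraries of day 9 stood between -0.61 and 0.39 of the control mean, and were within 1 of it in 50% to 87.8% of the chosen genes, against 72.4% to 93.7% of tested genes.

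Which genes are members depended on single libraries for most of them. Of the 59, 19 were chosen in all 20 choices, 12 were lost in 1 choice, 12 in 2 or 3 and 16 in at least 4. ENSCAFG00000016977, ENSCAFG00000003087 and the genes on chromosomes 2, 7, 14 and 20 described above were among those always kept. The chromosome 10 gene was kept in 8 choices, since it lay at the day 9 limit. Another 53 genes entered at least 1 choice.

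Genes close to the limits were as follows. Just inside a control rise of 2 lay members at 2.01, 2.01 and 2.02, and just outside it genes at 1.99, 1.99 and 1.99. For the MPS VII change, the nearest members were at 0.498, 0.483 and 0.480, and the nearest genes left out at 0.56, 0.58 and 0.58. For the day 9 difference, members at -0.99, -0.99 and -0.99 faced genes at -1.06, -1.14 and 1.35. The gap between control ages was 0.36, 0.40 and 0.46 in the closest members, and -0.08, -0.11 and -0.25 in the closest genes that overlapped.

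The tested genes next to members on either side, 116 in all, were read as a measure outside the choice. Of these, 20 (17.2%) had a control rise of at least 1, against 9.66% of tested genes, and 9 (7.76%) had such a rise with an MPS VII change under 0.5, against 3.86%. Neighbours can share reads where they overlap, and this was not tested.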

How the data were processed

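Counts were deposited by the authors as raw counts per gene in 20 libraries, per the file headers, with the exon positions and summed exon length. Per the labels' protocols, a stranded mRNA kit and paired 100-base reads were used, mapped to CanFam3.1 with Ensembl build 77. Tools named in the submitters' processing notes, without their roles, are STAR 2.4.0j, HTSeq, edgeR, CASAVA 1.8.2 and bcl2fastq. The sources used here do not give the strand setting or the treatment of reads with several matches. Between 65.2% and 76.4% of counts under 200 were even, so mates may be counted singly, and fits were repeated on halved counts. Each column matched 1 sample's title. Each library was taken as 1 animal; library pairs within groups differed beyond sampling noise (chi-square per gene 16.7 to 607, 40 pairs).

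Analysis used edgeR 4.0.16 in R 4.3.3: filterByExpr on 4 groups (14550 genes kept), TMM scaling, 1 fit over all 20 libraries (estimateDisp, robust glmQLFit, glmQLFTest), Benjamini-Hochberg adjustment over all tested genes, threshold 0.05. Code was tested on simulated data. CPM are TMM-scaled. Members and lists were chosen with earlier results of these data known. Genes described by library were the 10 with the largest control rise, the 6 with the highest control day 14 CPM, the 6 with the lowest MPS VII change and those within 200 kb of another member, 22 in all. Of the identifiers, 0 matched a symbol, so planned marker and pathway lists were not used. Alternatives were RLE scaling, library totals, other filters, prior counts and limits, halved and thinned counts, DESeq2 1.42.0, fits of only the groups compared, and each library left out.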

Additional observations from a re-analysis of the deposited data

Results flagged for a closer look

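In all, 100 sets of 5 libraries were examined (22 genes in 4 groups, and 3 library measures). In 9 of them a library lay far from the other 4 beside the range of its group, by Dixon's criterion at 95%. Its chance rate of about 1 of 20 is for independent, normally spread values. Many of these genes had few counts, and all were read in the same libraries, so the 9 are a description.

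MPS VII day 9 replicate 3 was far from its group in the chromosome 10 gene starting at 7659241 (32.6 CPM against 2.85 to 4.09 CPM) and in the chromosome 16 gene starting at 15384335 (1.62 CPM against 0 to 0.188 CPM). Control day 9 replicate 3 was far from its group in the chromosome 9 gene starting at 19539429 (0.616 CPM against 0 to 0.116 CPM) and in the chromosome 20 gene starting at 723069 (0.881 CPM against 0 to 0.116 CPM). Control day 14 replicate 4 held 27.2 CPM of ENSCAFG00000019846 against 5.04 to 11.41 CPM.

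ENSCAFG00000003087 had 0 CPM in MPS VII day 14 replicate 5 against 0.0918 to 0.112 CPM, that is, 0 counts against 2 in each other library of the group. Control day 9 replicate 1 held 66.8 CPM of the chromosome 9 gene starting at 9177714 against 33.9 to 42.2 CPM, and the members summed to 298 CPM against 200.2 to 228 CPM there. The median over members in MPS VII day 14 replicate 5 was -0.114 against 0.0805 to 0.139.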

How the results depend on the processing

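The number of members was 59, and 47 to 64 under RLE scaling, a sum filter, halved counts, thinning to the smallest library, other prior counts, overlapping control ages and removal of the trend on exon length (the last chosen after seeing the data). It was 97 with library totals alone, of which 44 were among the 59, with medians of 2.79 (control) and 0.13 (MPS VII) for the 59 and of 0.36 and 0.09 for all tested genes. It was 146 and 26 with a control rise of at least 1.5 and 2.5, 90 with an MPS VII change under 1, 40 with one under 0.25, and 34 and 71 with genotypes within 0.5 and 2 at day 9. Leaving out 1 library gave 49 (control day 14 replicate 4) to 79 (control day 9 replicate 1, where 3 of them had not been tested in the full data).

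The median control change of the 59 was 2.31 to 2.54 with 1 library left out, and their median MPS VII change -0.076 (without MPS VII day 9 replicate 5) to 0.23; the largest shifts of the latter came without MPS VII day 9 replicate 3 (0.23) and MPS VII day 14 replicate 5 (0.14). On halved counts 51 members were called with age in controls and 51 between genotypes at day 14. With 1 library left out, calls with age in controls were 59 in each fit, calls between genotypes at day 14 56 to 58, and calls of the difference of the age change 33 (without control day 14 replicate 4) to 49. Calls with age in MPS VII numbered 2, 0 with library totals alone, 1 with only MPS VII libraries in the fit, and 0 to 5 with 1 library left out. Calls at day 9 numbered 1, 2 with library totals alone, 4 with DESeq2, and 0 to 3 with 1 library left out. No paired analysis was possible because the labels carry no replicate or litter numbers. Members with few counts are limited by depth: the lowest group sum was 2 counts over 5 libraries, and no fold is given for it.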
